A study of Mus musculus with 6 samples.

Results

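Oxidative phosphorylation is carried out by 5 enzyme complexes of the inner mitochondrial membrane, and most of their subunits are encoded in the nucleus. The nuclear genes of these complexes were taken from the expression table of mouse cardiac mesenchymal cells by symbol and biotype. The symbols were those of the Nduf subunits of complex I, Sdha to Sdhd of complex II, the Uqcr genes of complex III, the numbered and lettered Cox genes of complex IV and the Atp5 genes of complex V. This gave 81 protein-coding genes of the 53460 genes in the table, 37 of complex I, 4 of complex II, 8 of complex III, 16 of complex IV and 16 of complex V. The symbol rule leaves out some true subunits, such as Cyc1 and Cox4i1, which are given with the related genes near the end.

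Complex I passes electrons from NADH, and complex II passes electrons from succinate, to ubiquinone. Complex III hands them to cytochrome c and complex IV to oxygen, while complexes I, III and IV pump protons that complex V, the ATP synthase, uses to make ATP. Complex II is encoded in the nucleus alone, whereas the other complexes combine nuclear subunits with subunits from the mitochondrial genome. In heart muscle, several complex IV subunits are made from isoform genes that are largely restricted to striated muscle.

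The cells were slowly adherent cardiac mesenchymal cells, a fraction selected by its late attachment to culture plastic, from hearts of C57BL6/J mice that the labels call male. The titles of all samples carry what reads as the same culture passage number. Libraries came from 3 sham samples (thoracotomy without infarction) and from 3 samples of hearts that had 60 min of ischemia and then 28 days of reperfusion, named infarct libraries here. Both groups were from day 28 after surgery. The question put to the nuclear respiratory genes is whether their RNA differs with the state of the heart of origin. Separate animals or cultures are not named in the labels, so p-values measure how these samples differ from one another, and that spread may be technical. The infarct library numbers are those of the table's columns.

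RNA was quantified as FPKM, in which fragments are scaled to transcript length and library size. The implied depth was 20.3 to 28.3 M fragments per library. Of 12 mesenchymal or fibroblast markers 11 were tested, whereas 1 of 15 cardiomyocyte markers (Tnnt2) and 0 of 8 skeletal muscle markers reached 1 FPKM in any library. Endothelial markers summed to 100.4 to 421 FPKM in the sham and 11.6 to 29.3 FPKM in the infarct libraries, and all 11 tested ones had a negative change. Their part in the values below was not tested. Sex-linked genes did not follow the label of male mice. Xist is transcribed from the inactive X chromosome of female cells. It was at 102.7, 110.9 and 102.3 FPKM in the sham and 63.1, 81.8 and 89.9 in the infarct libraries. The Y-linked gene Eif2s3y was at 0.130, 0.225 and 0.151 FPKM in the sham and 10.6, 0.804 and 2.27 in the infarct libraries. Ddx3y, Uty and Kdm5d, also Y-linked, were likewise higher in every infarct library than in any sham library. Sex-linked genes thus differed between the groups, and the part of this difference in the values below was not tested. The cells are therefore called by their group labels only. In bulk RNA, fewer cells of a type and less RNA per cell cannot be told apart.

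Nuclear respiratory genes were expressed at high and even levels in both groups, and no member passed the test between them. Of the 81 members, 77 passed the filter, which asked for at least 1 FPKM in 3 or more libraries. Their means over the 6 libraries ran from 1.27 FPKM for Cox7a1 to 731 FPKM for Atp5b, with a median of 68.7 FPKM against 10.003 FPKM over all 12720 tested genes. Together the 81 members held 1.88% to 2.11% of the FPKM of nuclear protein-coding genes. Complex medians were 53.6 FPKM for complex I, 42.8 for complex II, 150.9 for complex III, 125 for complex IV and 119 for complex V. The 4 members under the filter, Cox6a2, Cox7b2, Cox8b and Cox8c, were all complex IV isoforms. Of the members named below, Ndufa3, Ndufa2, Ndufb11, Ndufa4l2, Uqcrb, Cox6c and Cox6a2 lie in merged loci of overlapping genes in the table, so their values are less certain.

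**Figure D1:**
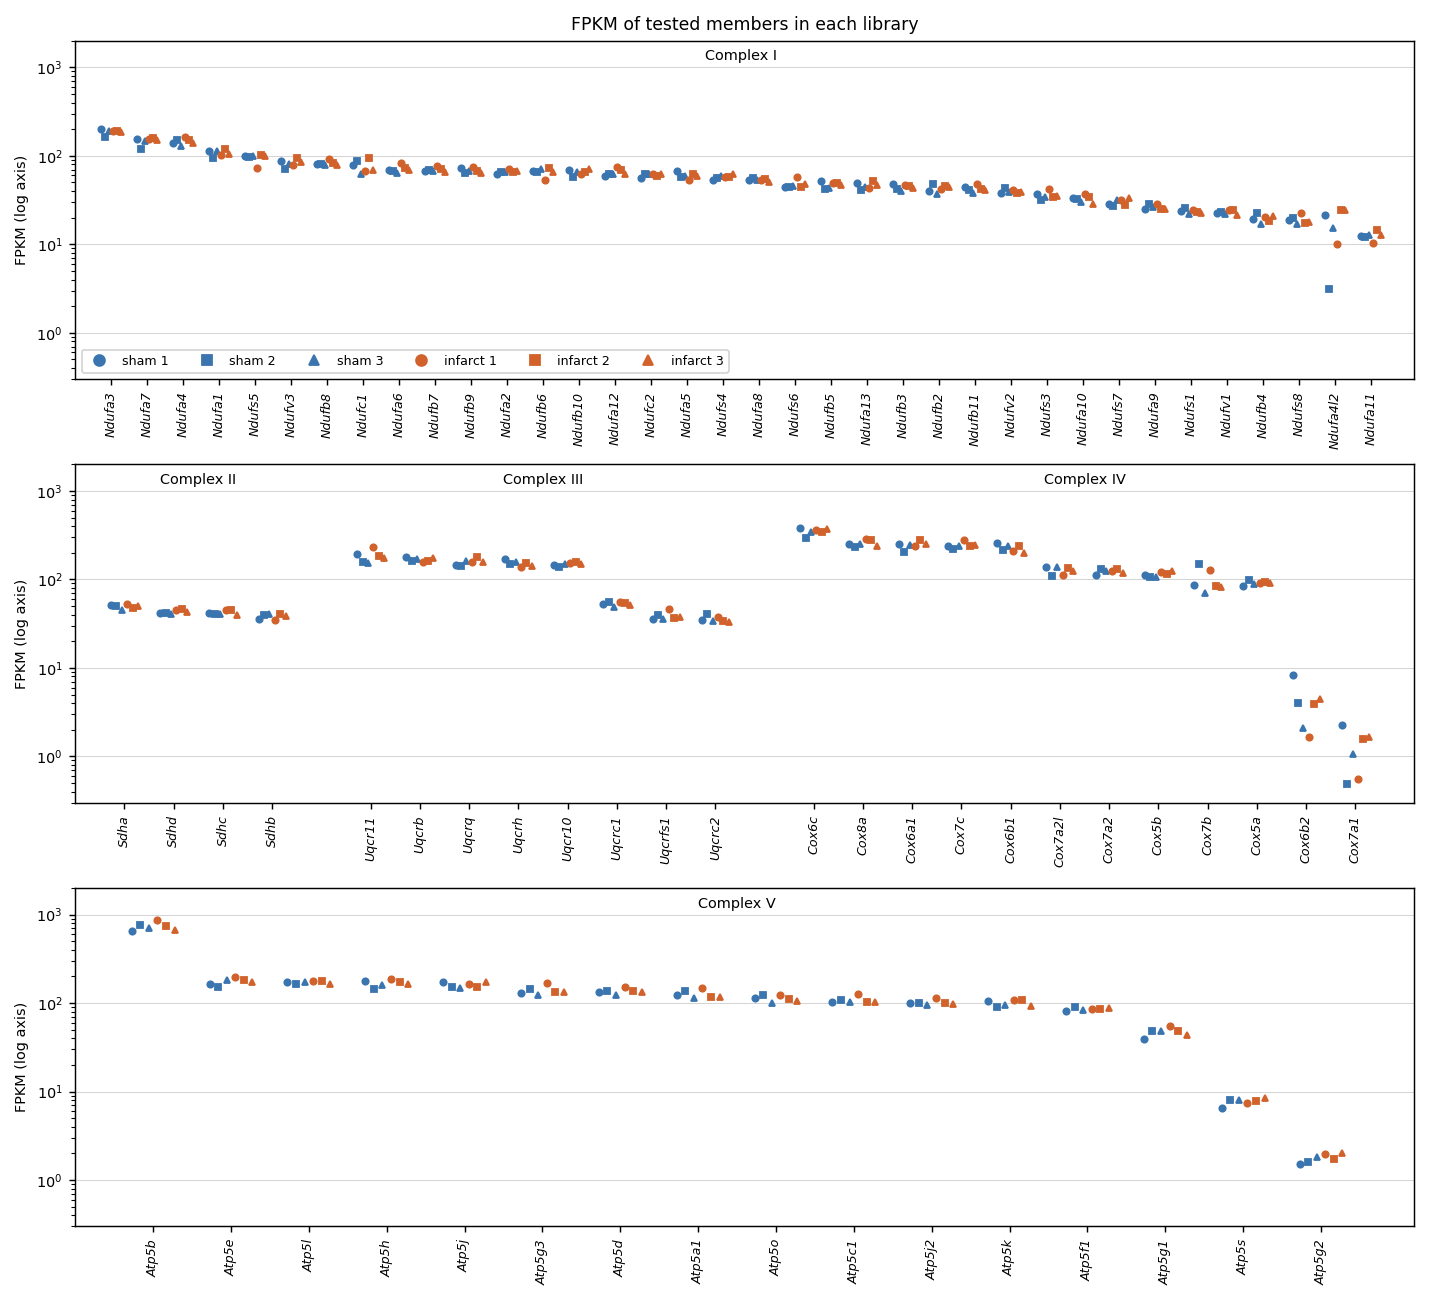
FPKM on a log axis of tested members in the 3 sham (blue) and 3 infarct (orange) libraries, with members ordered by mean level within each complex. The 6 points of most members lie close together, and Ndufa4l2, Cox6b2 and Cox7a1 stand out as low members with wide gaps between libraries.

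limma with Benjamini-Hochberg adjustment over 12720 genes called 0 of the 77 members, where 0.0236% of all tested genes were called. An unadjusted p under 0.05 was found for 0 members, against 3.58% of all tested genes, and the smallest was 0.113, for Ndufa12. The authors' deposited table gave a q-value under 0.05 to 0 members, where 1.66% of its genes with a completed test had one. The lowest q-value of a member in the authors' deposited table was 0.869, for Uqcr11. The adjusted limma p was 1.00 for every tested member.

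The intervals limit how large a change these libraries leave room for. For 73 of 77 members the unadjusted 95% limma interval of the change lay wholly within 1.5-fold in either direction. This was so for 71.6% of all tested genes. Among genes with a mean of 10 FPKM or more, it was so for 71 of 73 members, 97.3%, and for 81.4% of all genes. These sets were not matched in level, with a median of 71.0 FPKM for the members and 24.1 FPKM for all genes. The 4 members whose intervals reached past 1.5-fold were Ndufa4l2, Cox6b2, Cox7a1 and Cox7b. Leaving out 1 library at a time, between 70 and 73 members stayed within that bound. The bound is on the log2(FPKM + 1) scale, which understates the change of low genes. With a pseudocount of 0.1 or 0.01 the count was 72.

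**Figure D2:**
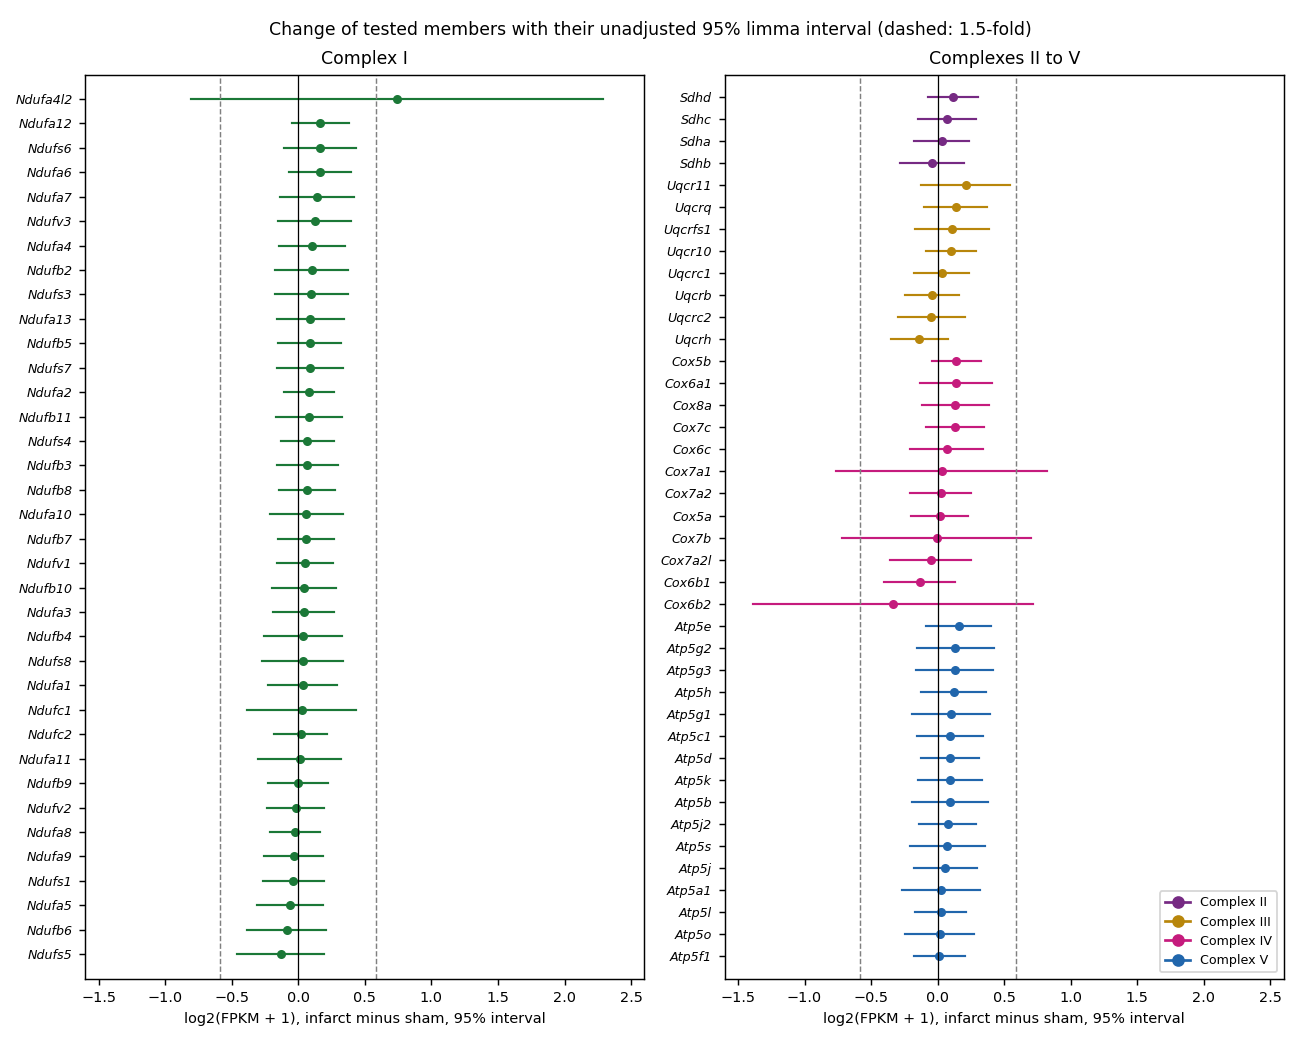
Change of tested members as log2(FPKM + 1), infarct minus sham, with unadjusted 95% limma intervals, and dashed lines at 1.5-fold. Every interval shown includes 0, and 4 intervals, those of Ndufa4l2, Cox6b2, Cox7a1 and Cox7b, reach past 1.5-fold.

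Small positive changes were more frequent than negative ones. The change was positive for 61 of 77 members, 79.2%, where 55.3% of all tested genes had a positive change. The median change was 0.06 on the log2(FPKM + 1) scale, beside 0.02 for all tested genes. All members were read in the same 6 libraries, so their signs are not independent of each other. Infarct values lay wholly above sham values for 7 members, 9.09%, against 3.71% of all tested genes. These were Ndufa2, Ndufa6, Ndufa12, Sdhd, Uqcr10, Cox5b and Cox7c, and 0 members had infarct values wholly below sham values, against 4.1% of all tested genes. The median fell to 0.03 without infarct library 1 and rose to 0.10 without infarct library 3, and between 55 and 61 changes were positive when 1 library was left out.

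Complex I had 29 positive and 8 negative changes among 37 members, with a median of 0.06, which was 0.04 without sham library 3 or infarct library 1 and 0.09 without infarct library 3. Its 30 accessory genes, which surround and stabilise the catalytic core, had a median of 62.9 FPKM. The most abundant were Ndufa3, at 185 ± 17.9 FPKM in the sham group and 189.7 ± 1.54 in the infarct group (mean ± SD of 3 libraries, here and throughout), and Ndufa7, at 141 ± 19.1 and 155 ± 4.53 FPKM. Ndufa11, a membrane-arm subunit, was lowest at 12.4 ± 0.235 and 12.6 ± 2.11 FPKM.

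Ndufa12, an accessory subunit of the peripheral arm (chr10:94198720-94221443, plus strand, GRCm38), had the smallest p of all members. It was at 59.9, 62.1 and 61.6 FPKM across sham libraries 1 to 3, and 74.4, 69.1 and 63.0 FPKM across infarct libraries 1 to 3. The lowest infarct value lay above the highest sham value, by less than the spread among the infarct libraries. The log2 change was 0.16 with an SE of 0.0903 and a 95% interval of -0.05 to 0.38. Ndufa6, another accessory subunit, was at 68.6, 67.3 and 64.4 FPKM in the sham and 83.7, 72.7 and 68.9 in the infarct libraries, a log2 change of 0.16. Its groups did not overlap either, and infarct library 1 stood well above the other 5. Without that library the change was 0.08 for Ndufa6 and 0.11 for Ndufa12.

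Ndufs6, a zinc-binding accessory subunit, was at 44.1, 44.5 and 45.3 FPKM in the sham and 58.4, 44.6 and 48.2 in the infarct libraries, a log2 change of 0.16. Infarct library 1 was again the highest and the other 5 libraries lay close together. Without it the change was 0.05, and without infarct library 2 it was 0.25. Ndufs5, an accessory subunit, showed the opposite for that library, with 98.9, 97.8 and 99.1 FPKM in the sham and 72.5, 102 and 98.7 in the infarct libraries. Infarct library 1 was the lowest, and the other 5 lay close together. The X-linked members of complex I, Ndufa1 and Ndufb11, were at 107 ± 10.6 and 109 ± 9.05 FPKM and at 41.4 ± 3.65 and 43.7 ± 3.54 FPKM, with overlapping groups.

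Complex II, the succinate dehydrogenase, had member means from 38.4 to 49.5 FPKM and a median coefficient of variation over the 6 libraries of 5.71%, the lowest of the 5 complexes. Of the 4 members, 3 had a positive change. Sdha, the flavoprotein that oxidises succinate, was at 49.0 ± 2.95 FPKM in the sham group and 49.99 ± 2.18 in the infarct group. Sdhb, the iron-sulfur subunit, was at 39.0 ± 2.67 and 37.9 ± 3.21 FPKM and was the lowest of the 4. The membrane anchors Sdhc and Sdhd were at 41.1 ± 0.825 and 43.2 ± 3.53 FPKM and at 41.6 ± 0.601 and 45.1 ± 1.86 FPKM. Sdhd was at 41.4, 42.3 and 41.1 FPKM in the sham and 45.4, 46.8 and 43.1 in the infarct libraries. All infarct values lay above all sham values, with a log2 change of 0.11 and a 95% interval of -0.07 to 0.30. Sdhc, with a log2 change of 0.07, had overlapping groups.

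Complex III had 5 positive and 3 negative changes, with a median of 0.07 that was 0.03 without sham library 3 and -0.00097 without infarct library 1. Levels divided by subunit size. The small subunits Uqcr11, Uqcrb, Uqcrq, Uqcrh and Uqcr10 stood at mean levels of 149 to 182 FPKM. Uqcrfs1, the Rieske iron-sulfur protein, and the core proteins Uqcrc1 and Uqcrc2 stood at 35.6 to 53.1 FPKM. Short transcripts are estimated less surely by FPKM, and over all members with transcripts under 500 nt the median level was 147 FPKM, against 65.0 FPKM for longer ones. Uqcrc2 was the lowest member, at 36.3 ± 3.74 and 35.0 ± 2.33 FPKM.

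Uqcr11, a small structural subunit, had the largest positive change of complex III. It was at 192, 159 and 155 FPKM in the sham and 231, 184 and 173 in the infarct libraries. Infarct library 1 was highest, and sham library 1 lay above the other infarct libraries. The log2 change was 0.21 with an SE of 0.141 and a 95% interval of -0.12 to 0.55. Without infarct library 1 the change was 0.09, and without sham library 1 it was 0.31. Uqcrh, the hinge protein, had the lowest change of the complex, -0.14, at 172, 151 and 158 FPKM in the sham and 139.8, 154 and 143 in the infarct libraries. Its groups overlapped between infarct library 2 and sham library 2. Uqcrq, which lies near the ubiquinone site, was at 150.3 ± 10.4 and 165 ± 13.7 FPKM (log2 change 0.14), and Uqcrb, the second most abundant member, was at 170.3 ± 9.39 and 165 ± 7.70 FPKM.

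Complex IV had 12 tested members, 8 with a positive and 4 with a negative change, and a median of 0.03. Without sham library 1 the median was 0.11. The most abundant was Cox6c, at 342 ± 44.8 FPKM in the sham group and 357 ± 11.2 in the infarct group. Cox8a was next at 245 ± 12.7 and 269.8 ± 27.9 FPKM, with a log2 change of 0.13. Cox5b, a zinc-binding subunit on the matrix side, was at 112, 105 and 108 FPKM across sham libraries 1 to 3, and 121, 115 and 123 FPKM across infarct libraries 1 to 3. All infarct values lay above all sham values. The log2 change was 0.14 with a 95% interval of -0.05 to 0.33. Cox7c, a small membrane subunit, was at 237, 221 and 236 FPKM in the sham and 277, 241 and 245 in the infarct libraries, a log2 change of 0.13, and infarct library 1 stood above the rest. Without that library the change was 0.07.

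In every library the broadly expressed isoform genes of complex IV stood far above their striated muscle counterparts. Cox6a1, the broadly expressed isoform of subunit 6a, held 99.6% to 99.9% of the FPKM of Cox6a1 and Cox6a2. Cox6a2, the heart and skeletal muscle isoform, was at 0.655, 0.173 and 1.06 FPKM in the sham and 0.362, 0.941 and 1.01 in the infarct libraries. Cox8a held 100% of its group, and Cox8b, the muscle isoform of subunit 8, and Cox8c, the testis isoform, were listed at 0 in all 6 libraries. Cox7a1, the muscle isoform of subunit 7a, held 0.203% to 0.882% of the FPKM of its group. Cox7a2, its broadly expressed counterpart, held 44.0% to 54.7%, and Cox7a2l, a related gene, held 45.1% to 55.1%. Counting Cox7a2l in this group lowers the shares of Cox7a1 and Cox7a2. The shares overlapped between sham and infarct libraries in each of these groups. Of the 15 cardiomyocyte markers, Myh6, Myl7, Nppa, Ckm and Ckmt2 were also at 0 in all 6 libraries. Tnnt2, the 1 marker of that list to reach 1 FPKM, was at 21.3, 16.7 and 53.2 FPKM in the sham libraries. It was at 14.3, 15.1 and 20.4 FPKM in the infarct libraries.

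The 60 bases before the start of 5 isoform genes are shown so that 3 broadly expressed isoforms, Cox6a1, Cox7a2 and Cox8a, can be set beside 2 muscle isoforms, Cox7a1, which was low here, and Cox8b, listed at 0. They are from RefSeq on GRCm38.p6, end before the more upstream of the RefSeq and GENCODE starts, read 5′ to 3′ on the gene's strand, and have CpG dinucleotides in capitals.
Cox6a1 (chr5:115348982-115349041, minus strand): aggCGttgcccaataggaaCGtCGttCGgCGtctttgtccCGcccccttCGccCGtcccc
Cox7a2 (chr9:79759879-79759938, minus strand): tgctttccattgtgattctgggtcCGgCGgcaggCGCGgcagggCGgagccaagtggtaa
Cox8a (chr19:7217617-7217676, minus strand): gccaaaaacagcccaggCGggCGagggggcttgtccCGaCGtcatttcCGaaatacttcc
Cox7a1 (chr7:30184084-30184143, plus strand): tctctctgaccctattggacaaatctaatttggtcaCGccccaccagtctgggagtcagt
Cox8b (chr7:140900447-140900506, minus strand): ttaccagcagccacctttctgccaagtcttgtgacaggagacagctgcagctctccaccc

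These stretches held 8 CpG in Cox6a1, 5 in Cox7a2 and 5 in Cox8a, against 1 in Cox7a1 and 0 in Cox8b. The first 3 genes are the ones read at over 100 FPKM here, and the last are the muscle isoforms. Over the 300 bases of the RefSeq promoter the counts were 32 CpG in Cox6a1, 20 in Cox7a2, 19 in Cox8a, 7 in Cox7a1 and 2 in Cox8b. The Cox7b pair went the other way over 300 bases, with 5 CpG in Cox7b, read at 101 FPKM, and 10 in Cox7b2, read at 0.0562 FPKM. The printed stretches are therefore a description of 5 chosen sequences.

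Other isoform groups were led by 1 or 2 genes as well. Cox6b1 held 96.9% to 99.2% of its pair, and Cox6b2, an isoform best known from testis, held the rest. Cox7b2, also known from testis, was at 0.337 FPKM in sham library 3 and listed at 0 in the other 5 libraries. The c-ring of the ATP synthase is encoded by Atp5g1, Atp5g2 and Atp5g3, whose mature proteins are alike. Atp5g3 held 71.1% to 75.7% of their FPKM, Atp5g1 23.4% to 27.9% and Atp5g2 0.823% to 1.12%. Ndufa4, named as a complex I gene but later placed in complex IV, was at 140.4 ± 11.7 and 151 ± 12.1 FPKM and held 85.0% to 98.0% of its FPKM sum with Ndufa4l2.

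Ndufa4l2, a paralog of Ndufa4 known as a gene induced by low oxygen (chr10:127514967-127517154, plus strand, GRCm38), varied most among members above 10 FPKM. It was at 21.7, 3.14 and 15.3 FPKM across sham libraries 1 to 3, and 10.1, 24.2 and 24.5 FPKM across infarct libraries 1 to 3. The highest value was 7.80 times the lowest, and sham library 2 and infarct library 1 were lowest. The log2 change was 0.74 with a 95% interval of -0.80 to 2.29. Without sham library 2 the change was 0.0063, and without sham library 1 it was 1.23. The groups overlapped, and no direction can be read from this gene.

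The same libraries stood apart for 3 other members. Cox7a1 was at 2.24, 0.489 and 1.08 FPKM in the sham and 0.560, 1.59 and 1.64 in the infarct libraries, lowest in sham library 2 and infarct library 1. Cox6a2 was also lowest of its group in each of these libraries. Cox7b, an X-linked subunit (chrX:106015700-106022450, plus strand, GRCm38), was at 87.2, 149.6 and 70.5 FPKM across sham libraries 1 to 3, and 129, 84.8 and 82.6 FPKM across infarct libraries 1 to 3. Here sham library 2 and infarct library 1 were highest and the other 4 libraries lay between 70.5 and 87.2 FPKM. Its log2 change was -0.01, with signs of either direction when 1 library was left out. Cox6b2 was at 8.33, 4.01 and 2.09 FPKM in the sham and 1.64, 3.94 and 4.48 in the infarct libraries, with sham library 1 alone on top. Its log2 change was -0.34, and without sham library 1 it was 0.08.

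Several marker sums stood apart in these libraries. The 10 proliferation markers, all above 1 FPKM, summed to 179.8, 339 and 130.2 FPKM across sham libraries 1 to 3, and to 382, 168 and 201 FPKM across infarct libraries 1 to 3. The highest sum of each group was in sham library 2 and infarct library 1. The 12 endothelial markers also had the highest sum of each group there, with 100.4, 421 and 274 FPKM across sham libraries 1 to 3, and 29.3, 11.6 and 14.5 FPKM across infarct libraries 1 to 3. Not every one followed the sum. Tek, Kdr, Flt1 and Mmrn2 were highest of the sham group in sham library 3, and Flt1 was lowest of the infarct group in infarct library 1. The 12 mesenchymal or fibroblast markers had the lowest sum of each group in sham library 2 and infarct library 1. Their sums were 5459, 4851 and 6030.0 FPKM across sham libraries 1 to 3, and 4634, 5836 and 5976 FPKM across infarct libraries 1 to 3. In the sham group this rested largely on Col3a1, at 1044, 440 and 1119 FPKM. Vim went the other way there, at 2087, 2176 and 2092 FPKM, and Eng and Itgb1 were lowest in sham library 1. Of the 9 macrophage and leukocyte markers Lyz2 alone reached 1 FPKM, at 22.1, 6.99 and 26.9 FPKM in the sham and 9.73, 26.7 and 28.0 in the infarct libraries. Lyz2 was lowest of each group in sham library 2 and infarct library 1. The other 8 stayed under 1 FPKM, with Adgre1 and C1qa at 0 in all 6 libraries. The Y-linked genes Ddx3y, Uty, Kdm5d and Eif2s3y were highest, and Xist was lowest, of the infarct group in infarct library 1. Ddx3y was at 6.07, 0.451 and 1.65 FPKM across infarct libraries 1 to 3. In the sham group the Y-linked genes stayed near 0 in every library. The part of these markers in the values of Ndufa4l2, Cox7a1, Cox6a2 and Cox7b was not tested.

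**Figure D3:**
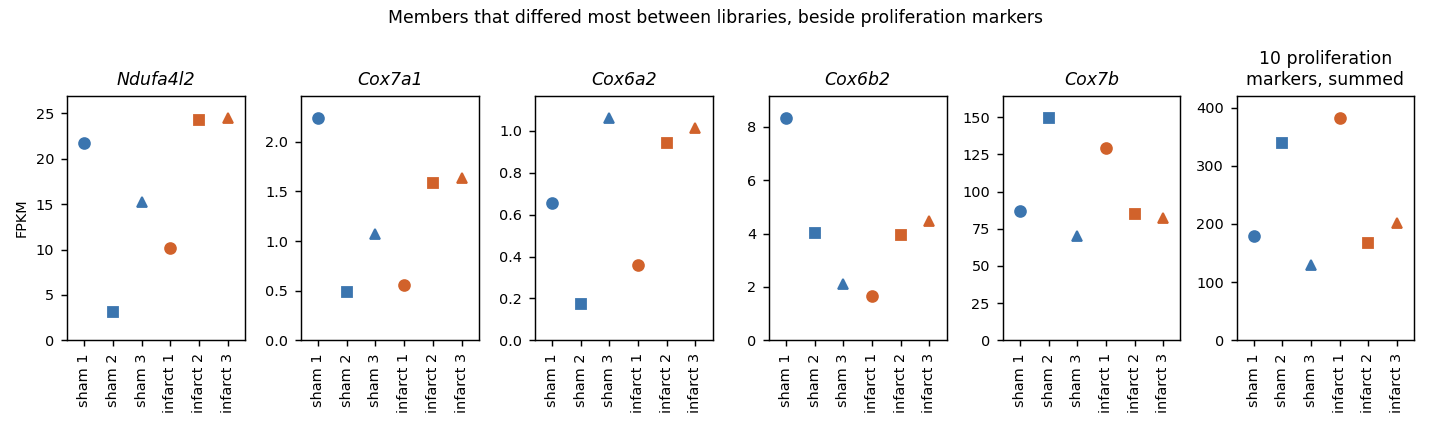
FPKM of Ndufa4l2, Cox7a1, Cox6a2, Cox6b2 and Cox7b in each library (sham blue, infarct orange), beside the summed FPKM of 10 proliferation markers, each panel with its own axis from 0. Sham library 2 and infarct library 1 have the highest proliferation sums, the highest Cox7b and the lowest Ndufa4l2 and Cox7a1.

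Complex V had a positive change in 16 of 16 members, with a median of 0.09 and a largest change of 0.16. The groups overlapped for all 16. In the catalytic F1 part, Atp5b, the beta subunit (chr10:128083273-128090391, plus strand, GRCm38), was the most abundant of all members. It was at 659.5, 758 and 702 FPKM across sham libraries 1 to 3, and 857, 733 and 675 FPKM across infarct libraries 1 to 3. Infarct library 1 was highest, and the other infarct libraries lay within the sham range. Atp5a1, the alpha subunit, which pairs with beta in equal number in the enzyme, was at 124 ± 10.8 FPKM in the sham group and 127 ± 17.4 in the infarct group. The Atp5b level was 5.38 to 6.24 times that of Atp5a1 in every library. Atp5e, the epsilon subunit, was at 162, 151 and 182 FPKM in the sham and 196, 183 and 173 in the infarct libraries, a log2 change of 0.16 with a 95% interval of -0.08 to 0.40.

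Among the stalk subunits, which hold F1 in place, Atp5h was at 161 ± 15.5 and 175 ± 10.8 FPKM (log2 change 0.12). In the c-ring, Atp5g2 was the lowest member of the complex, at 1.52, 1.59 and 1.80 FPKM in the sham and 1.94, 1.73 and 2.00 in the infarct libraries, a log2 change of 0.13. Its sham library 3 lay above infarct library 2. Atp5s, the gene of factor B, a regulatory protein, was at 7.50 ± 0.909 and 7.92 ± 0.558 FPKM. The membrane subunits Atp5j2, Atp5k and Atp5l were at 98.1 ± 3.57 and 104 ± 8.12 FPKM, 96.7 ± 6.91 and 103 ± 8.75 FPKM and 170.1 ± 5.54 and 173 ± 7.41 FPKM.

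The signs in complex V depended in part on infarct library 1. That library was the highest of the 6 for 10 of 16 complex V members and for 5 of 5 F1 genes, and for 26.1% of all tested genes. Without it, 13 of 16 changes were positive, against 51.8% of all tested genes, and the complex V median was 0.02. Without any other single library, between 14 and 16 were positive. Over all 77 members, infarct library 1 was highest in 31, 40.3%, sham library 3 was highest in 0 and infarct library 2 was lowest in 0. The same shares over all tested genes were 26.1%, 16.2% and 14.6%.

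Summed FPKM was slightly higher in the infarct mean of every complex, with overlapping groups. The infarct mean was 104% of the sham mean for complexes I, III and IV, 103% for complex II and 106% for complex V. The complex V sum was 2278, 2356 and 2259 FPKM across sham libraries 1 to 3, and 2668, 2369 and 2276 FPKM across infarct libraries 1 to 3. Infarct library 1 stood above the rest and infarct library 3 lay within the sham range. Without infarct library 1 the complex V mean was 101.1% of sham. All 81 members summed to 7421 ± 155 FPKM in the sham and 7760 ± 314 FPKM in the infarct group, and the groups overlapped. No test was made of these sums. Sham library 2 and infarct library 1 had the highest complex V sums of their groups. They also had the highest proliferation and endothelial sums and the lowest mesenchymal sums of their groups. Not every endothelial or mesenchymal marker followed its sum, and the part of these markers was not tested.

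**Figure D4:**
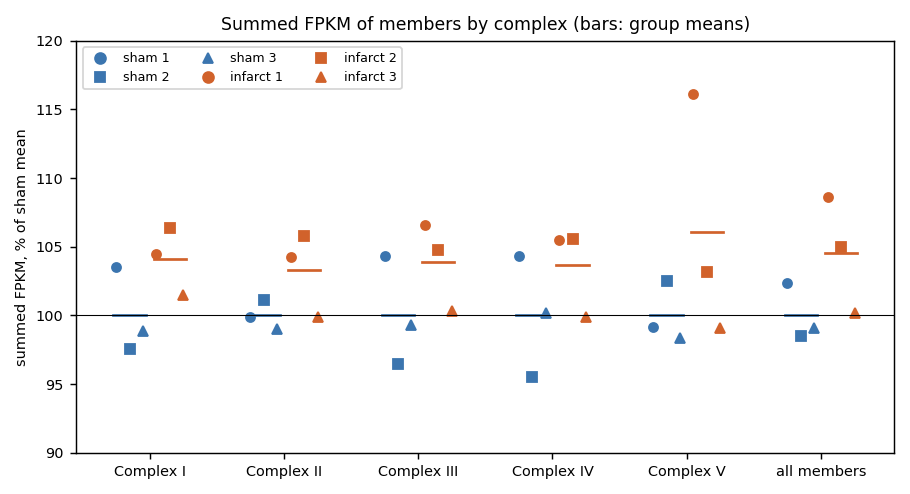
Summed FPKM of the members of each complex in each library as a percentage of the sham mean, with short bars for group means (sham blue, infarct orange). The axis starts at 90%, and the complex V point of infarct library 1 lies highest while the groups overlap in every complex.

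The members varied little between libraries. The median coefficient of variation over the 6 libraries was 8.31% for the 77 members, 13.9% for all tested genes and 10.5% for genes with a mean of 10 FPKM or more. It was under 20% for 73 members, 94.8%, against 68.8% of all tested genes and 83.6% of genes at 10 FPKM or more. The exceptions were Cox6b2, Cox7a1, Ndufa4l2 and Cox7b. Implied fragments per member had a median of 1471 and the counting error alone a median of 2.61%, and both cover counting error only. Members were chosen by symbol, and levels differ between the sets compared here.

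**Figure D5:**
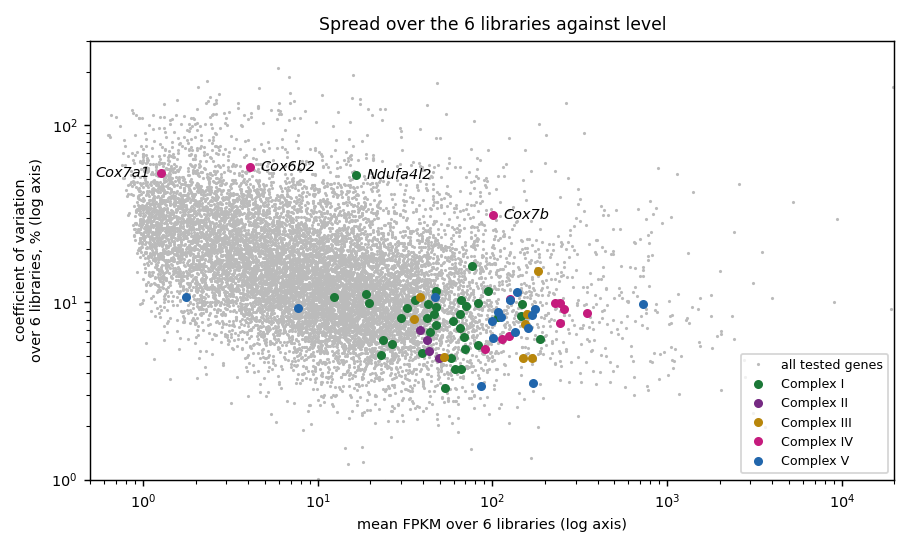
Coefficient of variation over the 6 libraries against mean FPKM, both on log axes, for the 77 tested members (coloured by complex) and all 12720 tested genes (grey). The members have a median of 8.31%, and the 4 labelled members, Cox6b2, Cox7a1, Ndufa4l2 and Cox7b, lie above 20%.

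Promoters were described because nuclear respiratory factor 1 (NRF1) and ETS factors of the GABP type are known regulators of respiratory chain genes. RefSeq promoters, 250 bases before to 50 after the start on GRCm38.p6, were matched to 66 of the 81 members. An NRF1-type motif, spelled GCGCA, then any base, then GCGC, was found on either strand in 16 of 66, 24.2%. The share was 6.46% of 17486 protein-coding genes, members included, each by its promoter of lowest coordinate. The letters CCGGAAG, an ETS-type motif, were found on either strand in 15 of 66, 22.7%, against 11.8% of those genes. Neither motif contains the letters of the other. Member promoters held a median of 19 CpG against 13, so base composition differs between the sets, and a match is not a binding site.

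The NRF1-type letters were in 7 of 32 promoters of complex I, 2 of 3 of complex II, 1 of 5 of complex III, 1 of 13 of complex IV and 5 of 13 of complex V. The stretches shown are those of the most abundant member of a complex whose match lies before both annotated starts, with the motif in capitals.
Ndufs5 (chr4:123718263-123718296, minus strand): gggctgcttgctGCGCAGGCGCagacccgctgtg
Sdha (chr13:74350281-74350307, minus strand): gaggggcgtgttGCGCAGGCGCagaat
Cox6a1 (chr5:115349054-115349087, minus strand): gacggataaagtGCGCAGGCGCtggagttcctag
Atp5h (chr11:115420039-115420072, minus strand): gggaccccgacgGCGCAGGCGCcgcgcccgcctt

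The motif began 98 bases before the RefSeq start in Ndufs5, 55 in Sdha, 117 in Cox6a1 and 141 in Atp5h. None of these 4 genes passed the test. Of the factor genes, Nrf1 was at 9.80 ± 2.46 and 10.4 ± 1.39 FPKM, close to the median of all tested genes, and Gabpa at 18.9 ± 1.79 and 20.2 ± 0.451 FPKM, above that median. Neither passed.

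Among related genes of the pathway limma called 0 in each list, with 0 at an unadjusted p under 0.05, and the authors' deposited table called 0 of them. Of 48 assembly factors, which build the complexes without staying in them, 47 were tested, 28 with a positive and 19 with a negative change, and the median was 0.06. The smallest p were those of Timmdc1, a complex I assembly factor, at 14.3 ± 0.943 and 17.0 ± 1.51 FPKM, Sdhaf4, which assists Sdha, at 14.7 ± 1.70 and 17.3 ± 0.488 FPKM, and Foxred1, another complex I factor, at 6.58 ± 0.978 and 7.97 ± 0.549 FPKM. Of 20 regulators of mitochondrial biogenesis 15 were tested, 9 positive and 6 negative, with a median of 0.03 that was -0.03 without sham library 3. The coactivator genes Ppargc1a and Ppargc1b and the receptor genes Esrrb, Esrrg and Ppara were under the filter. Ppargc1a, a main coactivator of respiratory genes, was at 0.0130, 0.145 and 0.0311 FPKM in the sham and 1.47, 0.0432 and 0.0359 in the infarct libraries. Infarct library 1 was the one library above 1 FPKM. Tfb1m and Tfb2m, factors of mitochondrial ribosomes and transcription, were at 1.83 ± 0.311 and 2.32 ± 0.327 FPKM and 10.9 ± 1.86 and 11.8 ± 1.72 FPKM.

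Of 20 carriers and subunits outside the symbol rule 17 were tested, 8 positive and 9 negative, with a median of -0.01. Cox4i1, the broadly expressed subunit 4 of complex IV, was at 299.8 ± 4.27 FPKM in the sham group and 315 ± 19.7 in the infarct group, and Cyc1, cytochrome c1 of complex III, at 31.5 ± 3.66 and 33.9 ± 3.02 FPKM. The smallest p were those of Dhodh, a pyrimidine enzyme that feeds ubiquinone, at 2.69 ± 0.313 and 3.61 ± 1.06 FPKM, and Atpif1, the inhibitor of the ATP synthase, at 191 ± 9.48 and 175 ± 12.1 FPKM. All 17 genes of the citric acid cycle were tested, 11 positive and 6 negative, with a median of 0.04 that was -0.03 without infarct library 1 and -0.0019 without sham library 3. Dlst was at 45.5 ± 3.93 and 42.1 ± 0.724 FPKM, Mdh2 at 104 ± 12.5 and 115 ± 14.5 FPKM and Dlat at 14.5 ± 1.24 and 15.6 ± 0.585 FPKM.

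The 13 subunits encoded in the mitochondrial genome had 9 positive and 4 negative changes, with a median of 0.03, and 0 were called. Among them mt-Co1, the catalytic subunit of complex IV, was at 3581 ± 24.9 FPKM in the sham group and 3646 ± 95.8 in the infarct group. This was far above Cox6c, the highest nuclear member of that complex. The smallest p were those of mt-Nd4l at 5.99 ± 1.89 and 9.28 ± 2.14 FPKM, mt-Nd3 at 6.80 ± 3.07 and 9.38 ± 2.99 FPKM and mt-Atp8 at 8513 ± 954 and 9486 ± 665 FPKM. In contrast, mt-Co2 was listed at 16.9 ± 5.77 and 15.3 ± 1.25 FPKM, mt-Co3 at 5.07 ± 1.47 and 4.63 ± 0.536 FPKM and mt-Atp6 at 6.37 ± 2.08 and 5.68 ± 0.888 FPKM. Mitochondrial genes overlap or adjoin each other, so levels of single ones are uncertain.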

How the data were processed

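Total RNA depleted of ribosomal RNA was made into directional libraries and read from both fragment ends (150 nt each), per the labels' protocols. Tools named in the submitters' processing notes are HISAT2, Cuffdiff, Cufflinks, StringTie, SAMtools and Trimmomatic 0.36, with the build GRCm38. An annotation version is not given in the sources used here. For 53460 genes the authors deposited 1 FPKM column per library and, per the file headers, their own p-values and q-values.

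Depth was implied from the steps of the lowest FPKM values, of which 74.5% to 78.2% came within 0.1 of whole fragments. Entries sharing a symbol were summed (110 symbols). The 14 genes that the authors' status marks as having too many fragments were left out, and no member was among them. The table gives merged loci, and 18 members lay in a locus more than 2 times as long as the gene, so overlapping genes are uncertain. The 6 pseudogene entries that match the symbols did not exceed 0.709 FPKM.

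Groups were compared with limma 3.58.1 (R 4.3.3, intensity trend, two-sided) on log2(FPKM + 1), a scale that understates the change of low genes, with Benjamini-Hochberg adjustment over the 12720 genes that reached 1 FPKM in 3 or more libraries and a threshold of 0.05. The fit was also run on simulated data with independent normal noise of the spread that limma estimated. Those data hold no effects shared within a library, so they do not check the fit against such effects. Intervals are limma's unadjusted 95% intervals. Lengths and coordinates are from GENCODE M21 (GRCm38). Members' promoters were those nearest the GENCODE start. For the set of all protein-coding genes, the promoter whose start has the lowest coordinate was used. That set includes the members and was not filtered by expression. Python 3.11.15, numpy 2.4.6, pandas 2.3.3 and matplotlib 3.10.9 were used otherwise.

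Of the tested members, 1 is counted in the fits but left out of the text and of the plots that name each member. The members, lists and tests were chosen with earlier results of these data known. Named were, in each complex, the 2 most abundant and the least abundant tested member and the 3 with the smallest p (2 in complex II). Members under the filter, isoform groups and X-linked members were also named, and from each related list the 3 genes with the smallest p. Ndufs5, Ndufa2, Uqcr10, Uqcrc1, Uqcrfs1, Atp5a1, Atp5s, the membrane subunits of complex V, Nrf1, Ppargc1a and the other regulators under the filter, Cox4i1 and mt-Co1 to mt-Co3 and mt-Atp6 fall outside this rule and were chosen after their values were seen. Other pseudocounts, filters, scalings, no trend and each library left out were tried as alternatives. So was leaving out short transcripts, or the paralogs and assembly factors among the members, such as Cox7a2l.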

Additional observations from a re-analysis of the deposited data

How the results depend on the processing

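No paired analysis was possible because the infarct columns carry numbers that are not those of the infarct samples. The labels also name no pairs of sham and infarct samples, so no pairing of the groups is implied. Members called stayed at 0 in all 14 alternative settings of the fit and by the authors' deposited q-values, as did members at an unadjusted p under 0.05 in the 14 settings. Over all tested genes, 3 were called, 1 without a filter, 247 by the authors' deposited q-values, and 1 to 14 when 1 library was left out (14 without sham library 1). The cause was not tested.

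With 1 library left out, the median change ranged from 0.028 to 0.097 over all members, 0.036 to 0.095 in complex I, -0.00097 to 0.091 in complex III, 0.020 to 0.11 in complex IV, 0.030 to 0.078 for assembly factors, -0.030 to 0.078 for biogenesis regulators, -0.034 to 0.048 for carriers, -0.025 to 0.075 for the citric acid cycle and 0.00047 to 0.10 for mitochondrially encoded subunits, where it was -0.068 with quantile normalization. Cox6b2 ranged from -0.72 to 0.077 and Cox7b from -0.24 to 0.30. The printed changes that moved by over 1.5 times but kept their sign ranged from 0.028 to 0.14 for Sdhc, -0.18 to -0.084 for Uqcrh, 0.068 to 0.19 for Uqcrq, 0.082 to 0.22 for Cox8a, 0.095 to 0.23 for Atp5e and 0.052 to 0.19 for Atp5h, beside those given with their genes above. Atp5g2 was at 0.21 with a pseudocount of 0.01 and Cox7c at 0.084 with quantile normalization. Adjusted p of the 17 members whose change is printed ran from 0.977 to 1 over all settings. Values not given here kept their direction or moved by less than the spread between libraries, and counts stayed within 1.5 times.

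Depth limits the low members most, since the tested member with the fewest implied fragments had a median of 13.8, a count that covers counting error only.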
